A study of Gallus gallus with 6 samples.

Results

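The ribosome and translation genes were examined in a chromatin immunoprecipitation sequencing study of histone H3 methylated at lysine 4 (H3K4) in chicken. The authors deposited 3 tables of genomic regions, each comparing a pair of cell populations, and every region carried the gene with the closest transcription start and that gene's Gene Ontology terms. A gene was a member if its terms included 1 named exactly ribosome, structural constituent of ribosome or translation. This gave 96 members of 6437 genes in the 3 tables: 70 of 3774 genes in ESC against PGC, 91 of 4224 in ESC against SSC and 31 of 3611 in PGC against SSC. Where a gene had several regions in a table, the region nearest its start was used. The annotation terms chose the members among the listed genes, and no ratio was used in the choice. Whether a gene was listed depended on its reads, and earlier results of these data were known when the members were chosen.

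Blastoderm cells of stage X eggs, cultured for 24 h with LIF, bFGF and SCF and then differentially purified, gave the embryonic stem cells (ESC). Genital ridges gave the primordial germ cells (PGC); their protocol states 4.5 d of incubation and their stage label 72 h (stage 27). Testes of embryos gave the spermatogonial stem cells (SSC), for which the protocol states 18.5 d and the stage label 18 d. No sorting by a marker, strain, sex or number of embryos is described. Since the antibody binds di- as well as trimethylated H3K4, both forms are counted together as H3K4 methylation. Each population had 1 immunoprecipitated (IP) library and 1 input library made without the antibody.

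Ribosomes are built from ribosomal RNA and the proteins of a large and a small subunit, and the cytosolic and the mitochondrial ribosome have separate sets of nuclear-encoded proteins. Initiation factors bring the small subunit, the initiator tRNA and the messenger RNA together, elongation factors deliver charged tRNAs and move the ribosome, and aminoacyl-tRNA synthetases charge the tRNAs. Cytosolic ribosomal protein genes are transcribed in nearly every cell. Trimethylated H3K4 marks active and poised promoters, and dimethylated H3K4 extends over promoter flanks, gene bodies and enhancers. The roles given below are those described in mammals or yeast.

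By role, the members were 21 proteins of the large cytosolic subunit, 20 of the small cytosolic subunit, 13 of the mitochondrial ribosome, 9 initiation factors, 4 elongation and termination factors, 7 aminoacyl-tRNA synthetases and 6 other genes. The remaining 16 members had Ensembl gene IDs for which the files gave no symbol, and 12 of these carried the term structural constituent of ribosome. The 6 other genes included GNB2L1, which encodes the small-subunit scaffold RACK1, PRMT3, a methyltransferase of RPS2, and QRSL1, a subunit of the mitochondrial glutamyl-tRNA amidotransferase. RPP30, C12orf66 and GTF2H3 were members through the terms in the tables, although RPP30 is known as a subunit of RNase P and GTF2H3 as a subunit of the transcription factor TFIIH. RPS25 carried none of the 3 terms and was not a member. The members lay on 25 chromosomes, and only 3 pairs were neighbours within 20 kb: MRPS11 and MRPL46, EIF5A2 and RPL22L1, and IARS2 and EPRS.

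The value used throughout was the enrichment, the RPM (reads of a region per megaread of its library) in the IP divided by the RPM in the input, with 1 read added to each count by the authors. The log2 ratio of the enrichments of a pair of populations was called past 2-fold at a size of at least 1. Its 95% counting interval came from the 4 counts behind it and covers counting error alone. Because there was 1 IP library per population, every comparison is between libraries, and no test between conditions could be made. The implied library totals were 19.15 to 26.03 megareads, while a typical region held few of them: the median region in ESC against PGC had 21 IP reads in ESC and 12 in PGC. Every listed region had an enrichment above 1 in both populations, so a region without enrichment in 1 of them was not listed, and the absence of a gene from a table shows nothing. In such bulk material, fewer cells with the mark and less mark per cell cannot be told apart.

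At ESC peaks over cytosolic ribosomal protein genes, H3K4 methylation was lower in the SSC library than in ESC and lowest in the PGC library. All 6 libraries could be counted over the same bases for 64 members whose region had the same coordinates in both ESC tables. All 64 regions were peaks in ESC, as were the regions of all 1801 genes shared in this way, and 61 of the 64 lay within 1 kb of the start. Such regions entered through the population where they are high, so the ESC value standing on top is given as a description and supports nothing. Among the 64 were 26 cytosolic ribosomal protein genes covering 30.91 kb. Their regions together held 4817 IP and 389 input reads in ESC, an enrichment of 9.49 (95% counting interval 8.56 to 10.5). The SSC libraries had 1063 IP and 543 input reads, an enrichment of 2.42 (2.18 to 2.68). The PGC libraries had 614 IP and 553 input reads, an enrichment of 1.37 (1.22 to 1.54). The SSC interval lay above the PGC interval, and the input RPM per kb was similar, at 0.631 in ESC, 0.742 in SSC and 0.716 in PGC.

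The order ESC over SSC over PGC held in the point values of 24 of these 26 genes. The other 2, RPL9 and RPS16, had PGC just above SSC. Between SSC and PGC most of these orders were within counting error, as at RPL23, with -0.05 (-1.66 to 1.55). SSC was at least 2-fold above PGC with an interval excluding 0 for 6 of the 26, or 23.1%, against 6.89% of all 1801 genes. Because all of these regions were ESC peaks, the place of ESC in the order is a description here too. Over all 64 members the order held for 49, or 76.6%, and over all 1801 genes with such regions for 66.5%. The median enrichment of all those genes also fell in this order, at 6.52 in ESC, 2.72 in SSC and 1.59 in PGC. The efficiency of the 3 immunoprecipitations was not scaled by the authors, and its part in the order was not tested. The large-subunit regions ranged in enrichment from 5.26 to 21.2 in ESC, from 1.48 to 5.56 in SSC and from 1.06 to 2.06 in PGC. The small-subunit regions ranged from 6.35 to 20.4 in ESC, from 1.24 to 5.98 in SSC and from 1.06 to 2.09 in PGC.

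**Figure D1:**
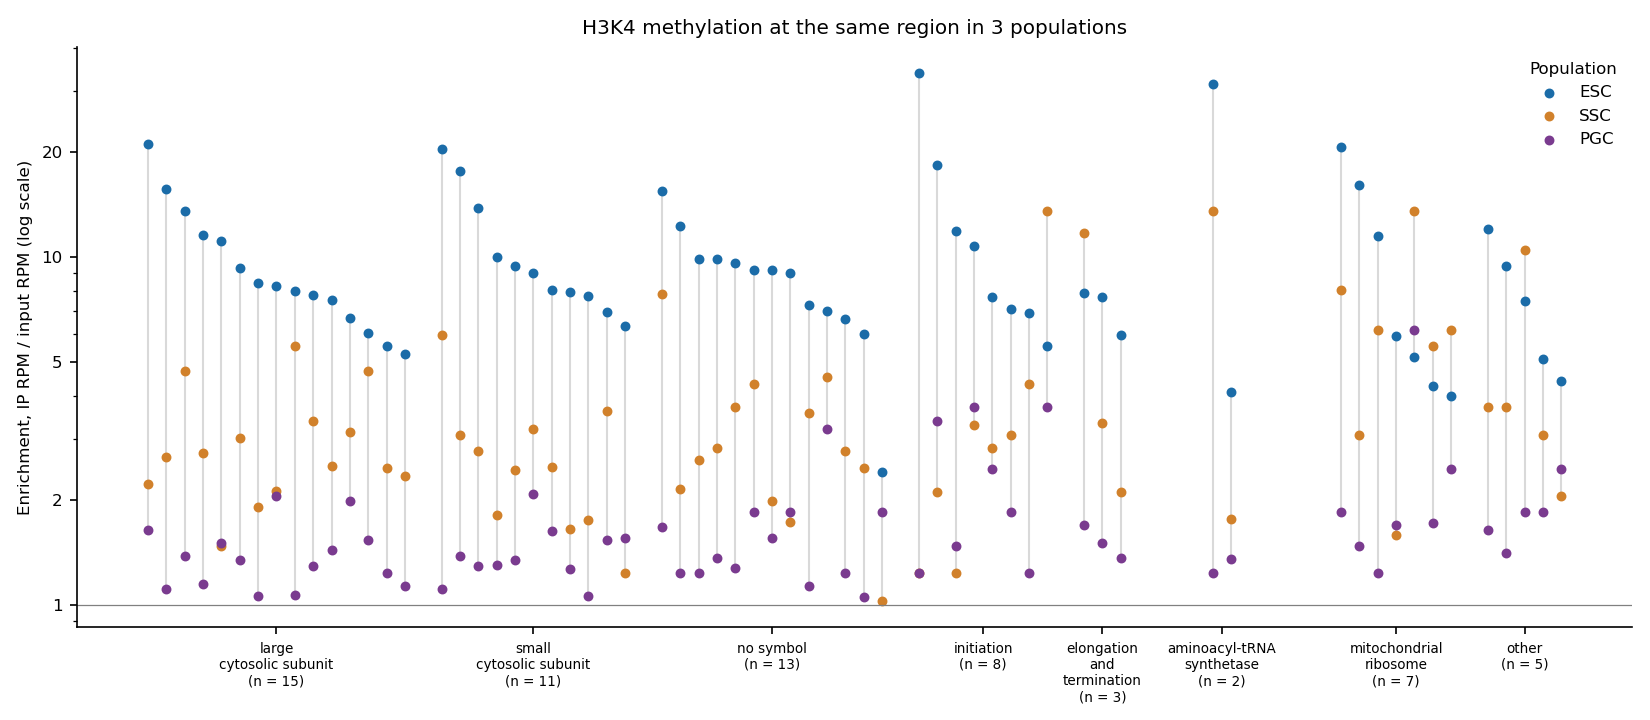
Enrichment (IP RPM over input RPM, log scale) at the 64 member regions listed with the same coordinates in both ESC tables. Each column of 3 points is 1 gene, with ESC in blue, SSC in orange and PGC in purple, grouped by role. The ESC point lies on top for all 26 cytosolic ribosomal protein genes, whereas SSC lies above ESC in some mitochondrial ribosome and factor genes.

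The same sums were taken for the other classes, over fewer reads. For the 7 mitochondrial ribosome genes with shared regions, the summed enrichment was 8.09 in ESC (4.99 to 13.1), 6.54 in SSC (3.69 to 11.6) and 2.28 in PGC (1.41 to 3.67). Here the ESC and SSC intervals overlapped widely. The 8 initiation factor genes stood at 13.98 in ESC (8.58 to 22.8), 3.22 in SSC (2.03 to 5.10) and 2.76 in PGC (1.65 to 4.62), so that the SSC and PGC intervals overlapped. The mitochondrial sum rested on 14 to 26 input reads per population, against 389 to 553 for the cytosolic genes, and the difference between the classes was not tested.

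In ESC against PGC, nearly every member had the higher enrichment in ESC. An at least 2-fold higher enrichment in ESC was found for 62 of 70 members, or 88.6%, where all genes in the table gave 50.4%. With the further demand that the interval exclude 0, this left 47 members, or 67.1%, against 25.4% of all genes. In the other direction only MRPL37 and an unnamed gene, ENSGALG00000004691, were at least 2-fold higher in PGC, where all genes gave 22%, and neither interval excluded 0, where all genes gave 1.85%. The median log2 ratio was 2.43 for the members and 1.02 for all genes. The members also differed from all genes in position and in peak calls. Among the 1663 genes whose region was a peak in ESC within 1 kb of the start, 85.1% were at least 2-fold higher in ESC, in a set that the ESC peak call itself tilts to ESC. The 62 members under the same restriction gave 57, or 91.9%. With the interval, the shares were 72.6% of these members and 44.1% of these genes, and the median IP count in ESC was 91 for the members and 37 for all of these genes. The ESC against PGC table held 3 of 12 somatic gonad markers, FSHR, GATA4 and NR2F2, all as peaks in PGC and 8536 bp or more from the start. They had 55 IP reads in PGC and 30 in ESC in all. Of 8 fibroblast markers it held 3, of which 2 were peaks in PGC. The part of other gonadal cells in the PGC values was not tested.

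The 15 large-subunit genes in this table were all at least 2-fold higher in ESC with an interval above 0: RPL6, RPL7A, RPL8, RPL9, RPL10A, RPL12, RPL19, RPL21, RPL23, RPL24, RPL31, RPL36, RPL37A, RPL38 and RPLP0. Their log2 ratios ran from 1.75 at RPL31 to 3.81 at RPL12. The largest belonged to RPL12, a protein at the base of the ribosomal stalk, at chr17:1555590-1556974 (galGal4), where the ESC libraries had 265 IP and 12 input reads, against 18 and 20 in PGC. The enrichment was thus 15.7 in ESC (8.99 to 27.4) and 1.12 in PGC (0.6 to 2.08), a 14.05-fold ratio. The region overlapped 2 further genes, LRSAM1 and the small nucleolar RNA SNORA65, so its reads cannot be assigned to RPL12 alone. RPL19 followed, with 82 IP reads over 2 input reads in ESC and 7 over 5 in PGC at chr27:4119324-4120028, a log2 ratio of 3.69 (1.43 to 5.94). RPL9 had the most IP reads of the subunit, 318 in ESC and 43 in PGC, with inputs of 21 and 35 and a log2 ratio of 2.88 (1.99 to 3.77). Of the 15 regions, 14 lay within 1 kb of the start, and that of RPL36 lay 1334 bp before its start.

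All 13 small-subunit genes were also at least 2-fold higher in ESC, and for 12 of them the interval excluded 0: RPS2, RPS3, RPS3A, RPS4, RPS6, RPS13, RPS14, RPS15, RPS15A, RPS16, RPS24 and cRPS11. The exception was RPS7, at 1.67 (-0.32 to 3.65), whose region in this table was a 203 bp stretch in intron 3, 1909 bp from the start. RPS15, a protein of the small-subunit head, had the largest ratio of the class. Over chr28:3097887-3098894 it held 159 IP reads over 5 input reads in ESC and 8 over 9 in PGC, which gave a log2 ratio of 4.20 (2.45 to 5.95), or 18.4-fold. RPS2, at the entrance of the messenger RNA channel, had the most IP reads of all members, 366 in ESC over 34 input reads, and 56 over 42 in PGC. Its enrichment in PGC was 1.64 (1.10 to 2.43), with an interval above 1, as was that of RPS3 at 2.09 (1.05 to 4.15). They were 2 of the 28 cytosolic genes, or 7.14%, with such an interval in PGC. Among the 1663 genes with an ESC peak within 1 kb of the start the share was near this, at 8.24%, and over all genes it was 37.7%. In ESC the interval lay above 1 for all 28, and for 98.5% of the 1663 genes. All of these regions were ESC peaks, so the ESC value is a description and supports nothing.

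**Figure D2:**
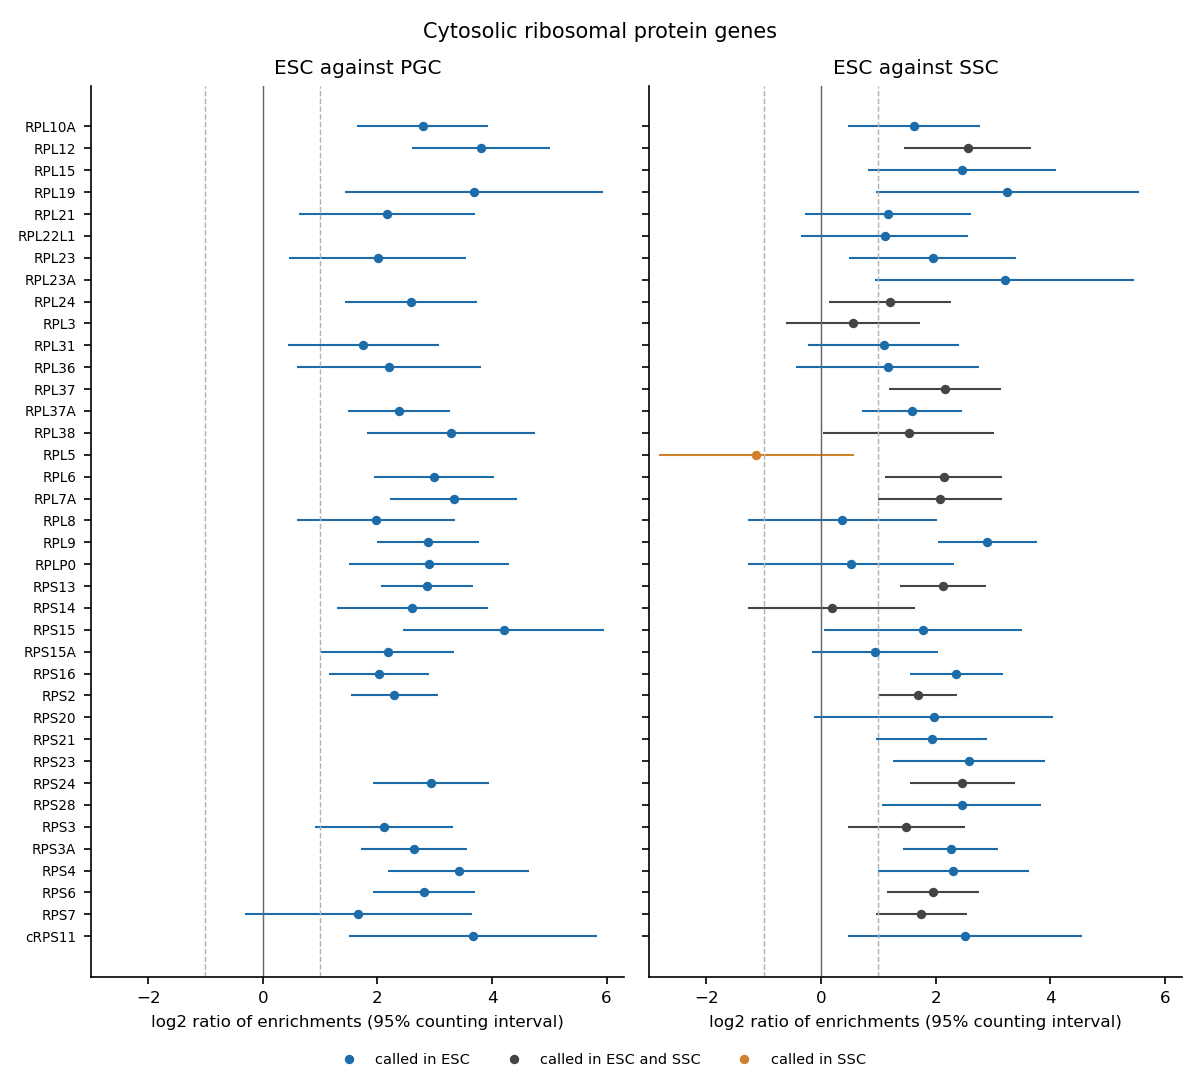
Log2 ratio of enrichments at cytosolic ribosomal protein genes in ESC against PGC (left) and ESC against SSC (right), with 95% counting intervals as lines and dashed lines at 2-fold. Colour gives the population in which the authors called the region a peak. All 28 points on the left lie right of the 2-fold line, while the points on the right spread from -1.13 at RPL5 to 3.25 at RPL19.

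Of the 21 members found in all 3 tables, 18 had a region shared by the ESC tables, and 15 of these had the order ESC over SSC over PGC. For most of these 15 the interval of the ratio between PGC and SSC included 0. These shared regions were all ESC peaks, so the place of ESC is again a description. SSC stood above ESC for C12orf66 and EIF5A2, and PGC above SSC for an unnamed gene, ENSGALG00000026978. The reads behind the order are given as IP over input at the shared region. RPL6 had 153 over 13 in ESC, 47 over 30 in SSC and 30 over 35 in PGC. RPL7A had 195 over 12, 50 over 22 and 26 over 28, in a region that also held the neighbouring gene MED22. RPL24 had 162 over 15, 51 over 18 and 20 over 19. In these 3 genes the PGC IP held about as many reads as the PGC input. RPL38 had 123 over 6 in ESC, 37 over 9 in SSC and 17 over 15 in PGC. RPL31 had 104 over 11, 27 over 10 and 20 over 12. RPL8 had 102 over 12, 18 over 4 and 14 over 11. RPL8 and RPL31 thus had few reads outside ESC, and their ratios against SSC, 0.37 (-1.28 to 2.02) and 1.09 (-0.23 to 2.42), were not resolved from 0. In the small subunit, RPS3 had 211 over 17 in ESC, 51 over 19 in SSC and 21 over 12 in PGC. RPS13 had 301 over 29, 70 over 49 and 42 over 49. RPS24 had 208 over 15, 65 over 44 and 34 over 32. The IP of these 3 genes held the most reads in ESC. The inputs of RPS13 and RPS24 held fewer reads in ESC than in SSC, 29 against 49 and 15 against 44. These inputs add to their ratios against SSC. C12orf66, with 38 over 3 in ESC, 16 over 1 in SSC and 5 over 3 in PGC, had too few input reads to order ESC and SSC, at -0.49 (-3.07 to 2.09).

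Outside the cytosolic ribosome, 34 of 42 members, or 81%, were at least 2-fold higher in ESC, 20 of them with an interval above 0, where all 28 cytosolic genes passed 2-fold and 27 had such an interval. The median region held 39 IP reads in ESC, against 165.5 for the cytosolic genes. Of 9 initiation factors, 8 passed 2-fold on the ESC side and the interval excluded 0 for EIF2A and EIF3L. EIF2A, a protein that can bring initiator tRNA to the small subunit without the canonical factor, had 43 IP reads and 0 input reads in ESC over chr9:23117919-23118281. The PGC libraries had 2 IP and 2 input reads and the SSC libraries 1 and 1. With the empty input set at 3 counts, the log2 ratio was 3.19 (0.33 to 6.05) against PGC and 3.18 (-0.11 to 6.48) against SSC, the latter interval including 0. EIF3L, a subunit of the scaffold factor eIF3, had 30 IP reads over 1 input read in ESC and 5 over 4 in PGC, a log2 ratio of 3.00 (0.32 to 5.69). EIF3J had the smallest ratio of the class, 0.59 (-1.83 to 3.00). EIF3F, another eIF3 subunit, was listed here only at a region 57055 bp from its start, with 26 IP reads over 3 input reads in ESC and 6 over 4 in PGC, at 1.58 (-0.66 to 3.83).

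All 3 elongation factors in this table were higher in ESC with intervals above 0: EEF1A1, which delivers charged tRNAs to the ribosome, at 2.12, EEF1B2, its nucleotide exchange factor, at 2.35, and EIF5A2, a relative of the hypusinated factor EIF5A, at 2.22. Among 3 synthetases, RARS, the arginyl-tRNA synthetase, had 40 IP reads over an empty input in ESC and 8 over 8 in PGC. With the empty input at 3 counts its log2 ratio was 3.09 (0.93 to 5.24). YARS, the tyrosyl-tRNA synthetase, was a peak in PGC and not in ESC, with 20 IP reads in PGC and 8 in ESC, at a log2 ratio of -0.91 (-2.98 to 1.16). Of the other genes, GNB2L1 stood at 2.74 (1.68 to 3.80) with 184 IP reads in ESC, and PRMT3 at 2.88 (0.96 to 4.79).

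Of 8 mitochondrial ribosome genes, 5 were at least 2-fold higher in ESC. The interval excluded 0 for MRPL46, at 3.48 (0.07 to 6.89), and MRPS11, at 3.44 (0.08 to 6.81), which are transcribed away from each other with 36 bp between the genes. Both had 0 input reads in ESC and 26 and 20 IP reads, and with that input at 3 counts the log2 ratios were 1.90 (-0.61 to 4.41) for MRPL46 and 1.86 (-0.59 to 4.30) for MRPS11, with intervals that included 0. MRPS31 had the most IP reads of the class in ESC, 49, at a region 1412 bp before its start, with a log2 ratio of 1.30 (-0.65 to 3.25). MRPL37 had 7 IP reads in ESC and 12 in PGC at a region 27512 bp from its start that overlapped another gene, SSBP3, and its ratio was -1.39 (-3.46 to 0.68). Of the 14 unnamed members 12 passed 2-fold on the ESC side, 10 with an interval above 0.

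In ESC against SSC the members again leaned to ESC, with smaller ratios. An at least 2-fold higher enrichment in ESC was found for 66 of 91 members, or 72.5%, against 38.4% of all genes, and with an interval above 0 for 38, or 41.8%, against 13.4%. At least 2-fold higher in SSC were 7 members, or 7.69%, against 24.5% of all genes, and none had an interval excluding 0, against 4.36%. The median log2 ratio was 1.36 for the members and 0.50 for all genes. Among genes whose region was a peak in ESC within 1 kb of the start, 63 of 79 members, or 79.7%, passed 2-fold on the ESC side, and 59.1% of all 2128 such genes. With the interval, the shares were 46.8% and 20.3%. This table shares its ESC libraries with ESC against PGC, so the 2 sets of values are not independent of each other. The ESC against SSC table held 8 of 12 somatic gonad markers, among them WT1, LHX9 and NR5A1, all as peaks in SSC, with 279 IP reads in SSC and 136 in ESC in all. Of 8 fibroblast markers it held 5, of which 4 were peaks in SSC. Of the markers of the labelled cells, the 3 tables held 4 of 14 for ESC, 3 of 15 for germ cells and 1 of 9 for SSC. DDX4 and DAZL were among the germ cell markers in none, and such absence shows nothing. Of those listed, TFAP2C was an ESC peak in both ESC tables, at 3.46 against PGC and 3.20 against SSC. In ESC against SSC, TDRD7 was an ESC peak (2.38, -1.36 to 6.12) and CXCR4 an SSC peak (-1.40, -3.39 to 0.60). Both were SSC peaks in PGC against SSC. The part of other gonadal cells in the SSC values was not tested.

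Of 21 large-subunit genes, 17 were at least 2-fold higher in ESC than in SSC, and 13 had an interval above 0: RPL6, RPL7A, RPL9, RPL10A, RPL12, RPL15, RPL19, RPL23, RPL23A, RPL24, RPL37, RPL37A and RPL38. RPL19 had the largest ratio, 3.25 (0.96 to 5.54), with 8 IP and 4 input reads in SSC. RPL23A, close to the exit of the peptide tunnel, had 97 IP reads over 2 input reads in ESC and 10 over 4 in SSC over chr19:5800697-5801442, a log2 ratio of 3.20 (0.95 to 5.45). RPL3, RPL8 and RPLP0 were under 2-fold. RPLP0, the core protein of the stalk, had 114 IP and 10 input reads in ESC against 17 and 3 in SSC, and its ratio was 0.53 (-1.27 to 2.33). RPL5, which binds the small ribosomal RNA of the large subunit, was the only member of this class on the SSC side, at -1.13 (-2.83 to 0.57) over a 214 bp region. RPL5 had other regions, and at the one with the most IP reads the ratio was 1.23.

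Of 18 small-subunit genes, 15 were at least 2-fold higher in ESC than in SSC and 14 had an interval above 0: RPS2, RPS3, RPS3A, RPS4, RPS6, RPS7, RPS13, RPS15, RPS16, RPS21, RPS23, RPS24, RPS28 and cRPS11. The start region of RPS7 was listed here over chr3:93306454-93308253, with 307 IP reads over 30 input reads in ESC and 63 over 34 in SSC, a log2 ratio of 1.75 (0.95 to 2.55). RPS14 stood at 0.18 (-1.27 to 1.64), with 34 IP over 6 input reads in SSC, an enrichment of 6.18 there.

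The mitochondrial ribosome genes showed no lean to either side that the counts could resolve. Of 11, 4 were at least 2-fold higher in ESC, 1 in SSC, and no interval excluded 0. The median log2 ratio was 0.37. MRPL47, the 1 gene past 2-fold in SSC, had 26 IP reads over 3 input reads in ESC and 10 over 0 in SSC, so its ratio of -1.39 rested on an empty input and turned to 0.19 with that input at 3 counts. EIF3J behaved alike, from -1.29 to 0.29.

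Among the factors, EIF2A, EIF3L and DENR had intervals above 0 in ESC against SSC. For EIF2A the interval included 0 once its empty ESC input was set at 3 counts. EIF3L had 6 IP and 6 input reads in SSC, a log2 ratio of 3.26 (0.71 to 5.82), and DENR, a factor for reinitiation, stood at 3.12 (0.67 to 5.56). All 6 synthetases were at least 2-fold higher in ESC, from 1.02 at RARS2 to 3.44 at LARS, but only LARS had an interval above 0. The LARS region, at the start of the leucyl-tRNA synthetase gene, held 63 IP reads over 1 input read in ESC and 10 over 5 in SSC. Beside EIF3J, EIF3F, HBS1L and QRSL1 were at least 2-fold higher in SSC. EIF3F had 13 IP reads over 9 input reads in ESC and 12 over 3 in SSC, 1182 bp before its start, a ratio of -1.90 (-3.90 to 0.09). HBS1L, which acts in the rescue of stalled ribosomes, stood at -1.95 (-4.10 to 0.20) over a region 25611 bp into the gene, and QRSL1 at -1.55 (-3.68 to 0.58). EEF1A1 and EEF1B2 were at 1.496 and 1.20, with intervals that included 0.

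**Figure D3:**
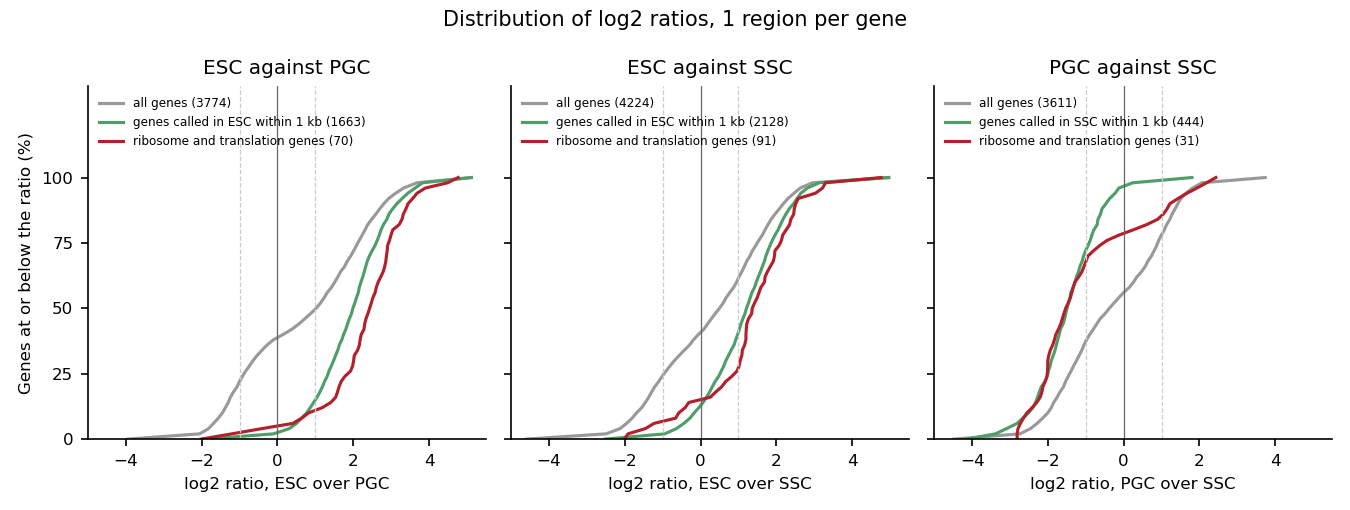
Cumulative distribution of the log2 ratio in the 3 tables, 1 region per gene, for all genes (grey), genes whose region was called a peak in the named population within 1 kb of the start (green) and the ribosome and translation genes (red). In both ESC tables the red curve lies to the right of the grey one over most of its course and closer to the green one.

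Most member regions had their centre close to the start, and those of the cytosolic ribosomal protein genes were wide. In ESC against PGC, 62 of 70 member regions, or 88.6% (exact binomial 95% interval 78.7 to 94.9), had their centre within 1 kb of the start, where all genes gave 46.0%. The share in ESC against SSC was 89.0% (80.7 to 94.6) and all genes gave 57.1%. There, 29.7% of member regions were at least 1 kb wide and 52.7% covered the start, against 6.16% and 16.8% of all genes. Among ESC peaks within 1 kb of the start in ESC against SSC, the 35 regions of cytosolic ribosomal protein genes had a median width of 1136 bp, from 105 bp before the start to 858 bp after it. All 2128 genes under the same restriction had a median of 392 bp, from 30 bp to 481.5 bp after the start. The cytosolic regions covered the start in 80% of genes against 31.3%, and held more than 1 summit in 77.1% against 29.4%. The 8 mitochondrial ribosome regions were narrow, with a median width of 265 bp, and none held more than 1 summit. The width and the read count of a region go together, so wide regions also have the narrower intervals.

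**Figure D4:**
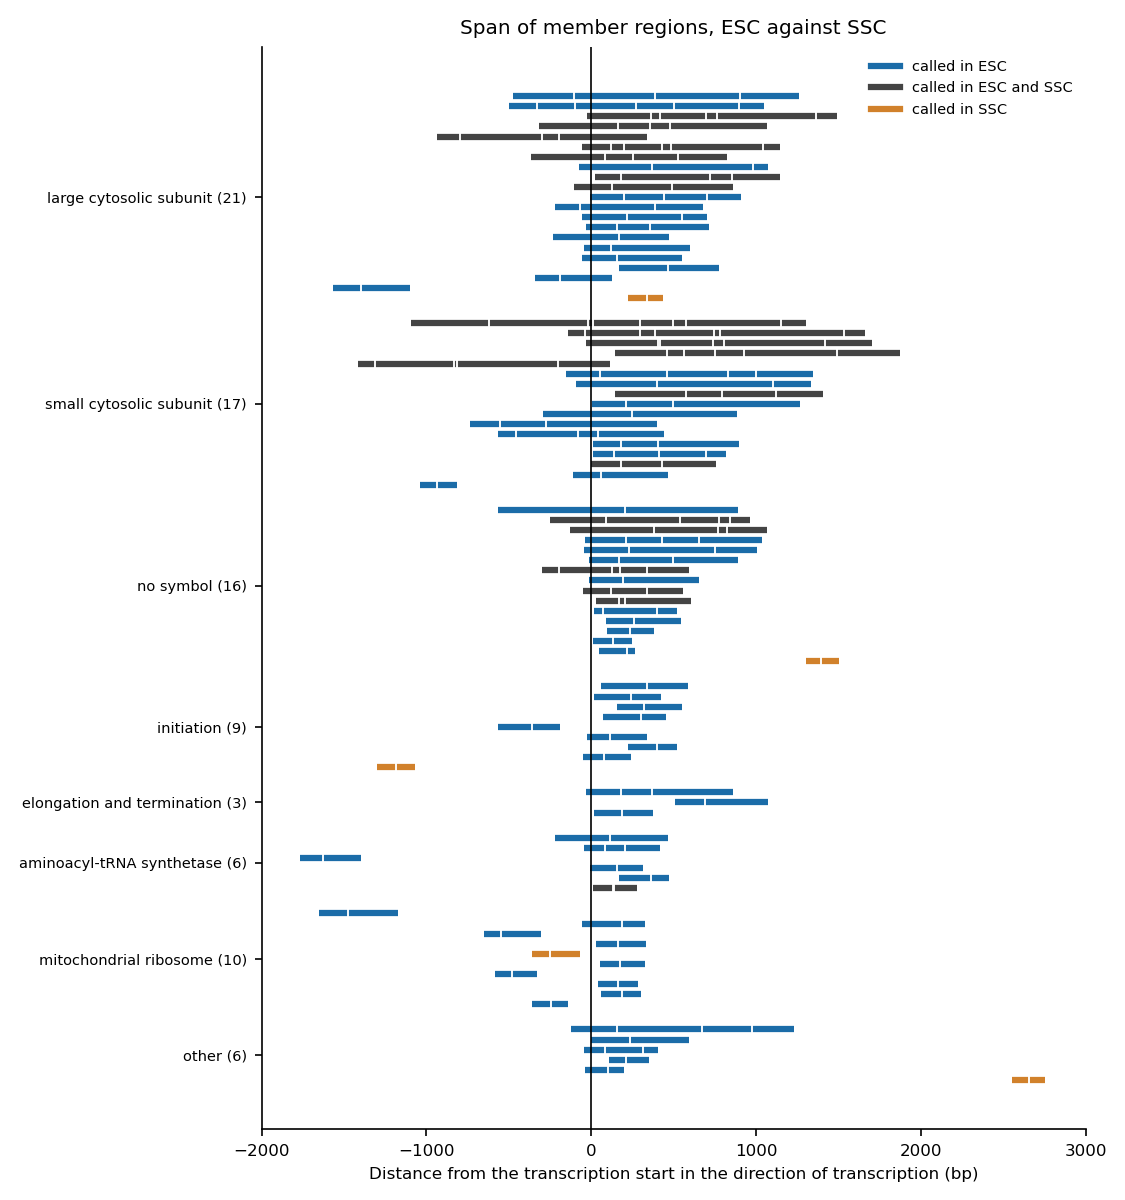
Span of the 88 member regions of ESC against SSC whose centre lay within 3 kb of the start, in bp from the start in the direction of transcription, with white ticks at the summits. Bars are coloured by the population of the peak call and sorted by role. Regions of cytosolic ribosomal protein genes often span more than 1 kb across the start, and those called in both ESC and SSC are mostly among the widest of these.

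Set beside other wide regions, the cytosolic ribosomal protein genes were similar in ESC against PGC. Of their 16 regions at least 1 kb wide that were ESC peaks within 1 kb of the start, all 16 were at least 2-fold higher in ESC; their median log2 ratio was 2.83. Of 132 genes that were no members and met the same conditions, 128 were, with a median of 2.61. In ESC against SSC, 18 of 20 such cytosolic regions, or 90%, had the 2-fold higher value in ESC; their median was 2.004. There, 117 of 156 other genes, or 75%, were, with a median of 1.60. All of these sets consist of ESC peaks, and that call itself tilts them to ESC.

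By the authors' peak calls, 67 of 70 member regions in ESC against PGC, or 95.7%, were peaks in ESC only and 3, or 4.29%, in PGC only, where all genes gave 59.4% and 40.3%. The calls in ESC against SSC gave 63 peaks in ESC only, or 69.2%, against 58.6% of all genes. Peaks in SSC only numbered 8, or 8.79%, against 34.1%, and peaks in both 20, or 22.0%, against 7.27%. Among the regions in both, RPL3 and RPS14 had ratios under 2-fold. The regions in both also included RPL7A, RPL12, RPL24, RPL37, RPL38, RPS2, RPS3, RPS6, RPS7, RPS13 and RPS24. These were peaks in SSC as well, at a lower enrichment than in ESC. RPS6, the small-subunit protein phosphorylated in response to growth signals, is an example: 332 IP over 26 input reads in ESC, 72 over 36 in SSC and 34 over 31 in PGC.

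PGC against SSC listed only 31 members, and in most the enrichment was higher in SSC. Peaks in SSC only were 24 of them, or 77.4%, and peaks in PGC only 7, or 22.6%, where all genes gave 52% and 47.8%. At least 2-fold higher in SSC were 21, or 67.7%, against 37.7% of all genes, with an interval excluding 0 for 4, or 12.9%, against 8.83%. At least 2-fold higher in PGC were 5, or 16.1%, against 21.4% of all genes, with an interval excluding 0 for 2, or 6.45%, against 1.99%. The median log2 ratio was -1.53 for the members and -0.38 for all genes. Among regions that were SSC peaks within 1 kb of the start, 16 of 19 members, or 84.2%, were at least 2-fold higher in SSC against 72.3% of 444 genes. With the interval, 21.1% of these members and 23.2% of these genes were. Both sets consist of SSC peaks, and that call itself tilts them to SSC. This table held 10 of 12 somatic gonad markers, 9 as peaks in SSC and 1 in PGC, with 765 IP over 138 input reads in SSC and 281 over 210 in PGC in all. It also held 3 of 8 fibroblast markers, all as peaks in SSC, with 95 IP reads in SSC and 62 in PGC. Their part in the member values was not tested.

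Among the members higher in SSC with an interval excluding 0 were the large-subunit genes RPL7A, RPL37 and RPL38. RPL7A had 23 IP reads over 4 input reads in SSC and 8 over 10 in PGC over chr17:6865802-6866200, a log2 ratio of -2.56 (-4.44 to -0.67). RPL37 had the most reads, 59 IP over 11 input in SSC and 20 over 20 in PGC over chrZ:12778915-12779789, with a ratio of -2.32 (-3.57 to -1.08). At both, the PGC enrichment was near 1, at 1.01 for RPL7A and 1.23 for RPL37. RPL38, a protein studied in mice for its part in body patterning, had 26 over 3 in SSC and 8 over 5 in PGC, a ratio of -2.17 (-4.30 to -0.05). The regions of these genes were peaks in SSC, a call that tilts them to that side. Over the wider regions shared by both ESC tables, the ratio was -1.25 (-2.29 to -0.22) for RPL7A and -1.76 (-3.16 to -0.36) for RPL38.

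Further cytosolic ribosomal protein genes lay on the SSC side, at regions that were peaks in SSC. RPL6 and RPS7 each had 13 IP reads over 1 input read in SSC and 3 over 3 in PGC. RPS3 had 20 over 3 against 5 over 4, RPL24 30 over 7 against 5 over 5, RPS6 22 over 7 against 4 over 5, and RPS13 18 over 3 against 6 over 2. For each of these 6 genes the interval reached past 0. RPS2 had 28 IP and 8 input reads in SSC against 9 and 3 in PGC, and its ratio of -0.37 (-2.36 to 1.62) was not resolved from 0. Over its wider region shared by both ESC tables, RPS2 had 106 over 52 in SSC and 56 over 42 in PGC. The ratio there was -0.61 (-1.35 to 0.13). EIF3F, with 12 IP over 3 input reads in SSC and 14 over 9 in PGC, stood at -1.12 (-3.10 to 0.87). RPL8, at a region 6525 bp from its start, and C12orf66, at one 8701 bp away, stood at -1.42 (-3.37 to 0.54) and -1.36 (-2.93 to 0.21).

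The 7 member regions that were peaks in PGC all lay more than 1 kb from the start. The 2 with an interval excluding 0 were the unnamed ENSGALG00000026978, with 30 IP reads over 6 input reads in PGC and 8 over 10 in SSC at a distance of 46919 bp, and HBS1L, with 16 over 4 against 9 over 11 at 2697 bp. Their log2 ratios were 2.43 (0.70 to 4.17) and 2.03 (0.15 to 3.91). RPS24 had its PGC peak 90352 bp from the start, with 17 IP and 4 input reads in PGC and 7 and 3 in SSC, at 0.85 (-1.40 to 3.09). RPL31 stood at 1.22 (-0.59 to 3.03), EIF5A2 at 1.58 (-0.61 to 3.77), MRPS18A at 1.10 (-0.99 to 3.18) and YARS at 0.25 (-1.67 to 2.18). For RPL31, RPS24 and ENSGALG00000026978 the start region in both ESC tables was a different one and was higher in ESC. At distances such as 46919 or 90352 bp the nearest start gives no evidence that a region belongs to the gene. HBS1L, at 2697 bp, and others of the 7 lay closer, and whether they belong to the gene was not tested.

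**Figure D5:**
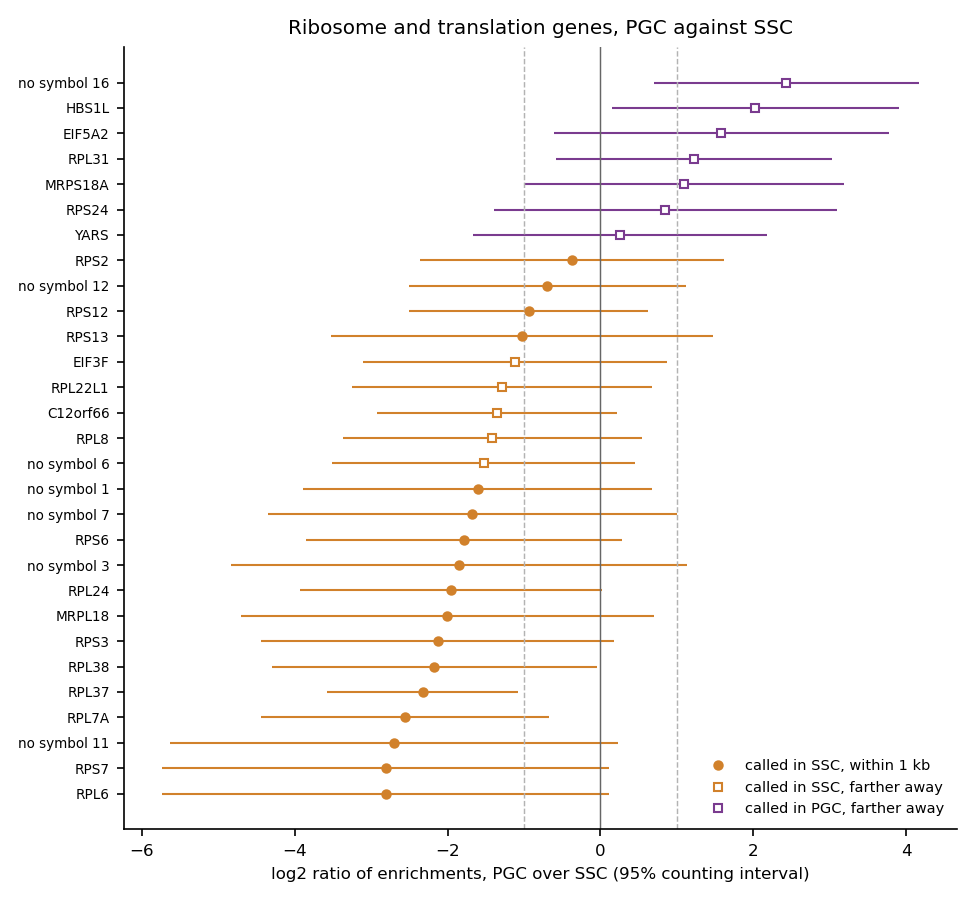
Log2 ratio of enrichments in PGC against SSC for 29 of the 31 members listed there, with 95% counting intervals and dashed lines at 2-fold. Orange marks SSC peaks and purple PGC peaks, and filled symbols lie within 1 kb of the start. Every filled symbol is an SSC peak with a ratio below 0. Such regions entered through the population where they are high, so the side on which they lie is a description. Genes without a symbol are numbered in the order of their gene IDs.

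The same pair could be compared at the 64 regions shared by both ESC tables, which were all ESC peaks. There 35 members, or 54.7%, were at least 2-fold higher in SSC than in PGC, against 38.8% of 1801 genes, and none in PGC, against 2.89%. The interval excluded 0 for 12, or 18.8%, against 6.89%. The median log2 ratio was -1.06 for the members and -0.68 for all these genes. The classes differed. At least 2-fold higher in SSC were 60% of 15 large-subunit genes (median -1.04) and 36.4% of 11 small-subunit genes (median -0.73), the latter near all genes. The shares were 25% of 8 initiation factors (median -0.10) and 85.7% of 7 mitochondrial ribosome genes (median -1.32), both on few reads.

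Of the 21 members listed in all 3 tables, 12 were cytosolic ribosomal protein genes and 6 had no symbol. Between tables the region was not always the same. Of 68 members in both ESC tables, 65, or 95.6%, had overlapping regions, against 76.8% of 2510 genes, and EIF3F, RPS7 and ENSGALG00000004691 did not. Of 27 members in both ESC against SSC and PGC against SSC, 17, or 63%, overlapped, against 51.6% of 1886 genes. EIF5A2 shows the difference: its start region, with 71 IP reads over 6 input reads in ESC, 10 over 7 in PGC and 18 over 1 in SSC, was in the ESC tables only, and the region listed in PGC against SSC lay 1493 bp before the start. ENSGALG00000004691 was on the non-ESC side in both ESC tables, with 8 IP reads in ESC and 14 in PGC in one and 5 in ESC and 14 in SSC in the other.

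Genes of the same pathway that carried none of the 3 terms were taken from 7 symbol lists of ribosomal proteins, translation factors, synthetases, mitochondrial translation factors, ribosome biogenesis genes and growth regulators of translation. EIF4EBP1 was on the lists of initiation factors and of growth regulators, and is counted under both in the ESC tables. In ESC against PGC, 24 of 34 list entries, or 70.6%, passed 2-fold on the ESC side, against 50.4% of all genes. On the PGC side 3, or 8.82%, did, against 22%. With an interval excluding 0 there were 16, or 47.1%, against 25.4%, and 0, against 1.85%. In ESC against SSC the counts were 26 of 38 entries in ESC, or 68.4% against 38.4%, and 3 in SSC, or 7.89% against 24.5%. With the interval there were 9, or 23.7% against 13.4%, and 1, or 2.63% against 4.36%. Of the entries, 26 of 34 and 28 of 38 lay within 1 kb of the start, where all genes gave 46.0% and 57.1%. Among genes with an ESC peak that near, 85.1% passed 2-fold against PGC and 59.1% against SSC. The entries were not restricted to such peaks, so their shares are not matched to these. RPS25 stood at 3.62 (1.65 to 5.58) against PGC and 1.75 (0.25 to 3.25) against SSC. Among 14 ribosome biogenesis genes in ESC against PGC, 7 were higher in ESC with an interval above 0: BYSL, DKC1, NPM1, RRP7A, UTP15, UTP18 and UTP20. DKC1, the pseudouridine synthase of ribosomal RNA, had 67 IP reads over 2 input reads in ESC and 6 over 7 in PGC, a log2 ratio of 4.01 (1.79 to 6.23). NPM1, a nucleolar chaperone, stood at 2.49 (1.40 to 3.57) against PGC and 1.51 (0.45 to 2.57) against SSC. Against SSC, UTP6, UTP15 and UTP18, components of the small-subunit processome, also had intervals above 0. The UTP6 region there lay 3432 bp from its start. In ESC against PGC, UTP6 was listed at another region 49628 bp from the start and stood at -1.27 (-3.06 to 0.53).

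Among the factors without the terms, EIF2B5, EIF4G2, EIF4H, EIF5 and the termination factor ETF1 were higher in ESC than in PGC with intervals above 0, and EIF2B5 and ETF1 also against SSC. The EIF2B5 region lay 3962 bp from its start in both ESC tables, and the EIF4G2 region in ESC against PGC 1516 bp. MRPL40 was higher against PGC and MRPL54 against both. EIF2D was the 1 gene of these lists higher in SSC than in ESC with an interval excluding 0, at -3.44 (-5.89 to -0.996), 6501 bp from its start and with 1 input read in SSC. MYCN, a transcription factor that drives ribosomal genes, had log2 ratios of 2.74 (2.08 to 3.41) against PGC and 1.71 (1.05 to 2.38) against SSC. In PGC against SSC, 11 of 20 such genes, or 55% against 37.7% of all genes, passed 2-fold on the SSC side and 3, or 15% against 21.4%, on the PGC side. EIF4H and DKC1, both at -2.32, had intervals excluding 0.

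Ribosomal protein genes can have near-identical copies elsewhere in a genome, and how the authors treated reads that fit several places is not given in the sources used here. The median log2 ratio of all listed regions was itself off 0, at 0.90 in ESC against PGC, 0.31 in ESC against SSC and -0.42 in PGC against SSC. With this median taken off, the members past 2-fold were 52 in ESC and 4 in PGC, 48 in ESC and 7 in SSC, and 6 in PGC and 17 in SSC, in the order of the tables.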

How the data were processed

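ChIP-seq for H3K4 methylation and its inputs were measured in 3 chicken populations, 1 IP and 1 input library each. The submitters' processing notes name the build galGal4 and the tools MACS2, BWA, FastQC and CASAVA 1.8. Other versions, their settings and the counting step are not given in the sources used here. Per the file headers, the deposited tables hold read counts, RPM, fold enrichment as a ratio and log2 fold change per region and the populations called. In 100% of regions the deposited RPM equalled the count plus 1 over a library total. The base of coordinates is not stated.

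From the counts and library totals, each ratio was computed anew with Python 3.11.15, numpy 2.4.6, pandas 2.3.3 and scipy 1.17.1, and the largest difference from a deposited log2 value was 6.94e-06. Repeats of a region listed once per gene (90, 152 and 55) were collapsed. The interval, a delta method on the 4 counts, was tried on counts simulated from the real ones with counting error alone. For most regions both IP means were set to the average of the pair, and no listing rule was applied. The interval held the true ratio in 96.7%, 97.2% and 96.9% of the 4801, 5840 and 4823 regions of the tables. Such counts cannot show error between libraries or from the listing of regions. An input of 0 reads was also set at 3 counts.

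Members, lists and roles were chosen with earlier results of these data known. Genes named were members past 2-fold with an interval excluding 0, per role the member with the most IP reads and the ratio farthest the other way, and members in all 3 tables. Full read counts were given for the last group and the 5 largest ratios per table, except for most genes without a symbol. Promoter sequences were not analysed here, and a few members the rule would name are counted but not reported singly. Alternatives are given in the closing section.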

Additional observations from a re-analysis of the deposited data

How the results depend on the processing

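Of 118 summary values recomputed under alternatives, 81 kept within their limit, and of 1078 member values 1056 stayed within the counting interval. In ESC against PGC, members higher in ESC numbered 117 with any term naming ribosom or translation. Those higher in PGC numbered 4 after centring, 1 with at least 20 IP reads, 0 within 1 kb, 9 with any such term, 1 at 4-fold and 0 with the interval. The median was 1.91 with 5 reads added, 1.54 after centring and 2.12 with any term. The share near the start was 75.7% within 500 bp and 95.7% within 2 kb.

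In ESC against SSC, those higher in ESC numbered 122 with any term, 25 at 4-fold and 38 with the interval. Those higher in SSC numbered 4 with 5 reads added or without inputs, 3 within 1 kb or without the term translation, 17 with any term, 1 at 4-fold and 0 with the interval. The median was 1.09 with 5 reads added and 1.05 after centring, and the shares near the start were 73.6% and 95.6%. In PGC against SSC, those higher in PGC numbered 3 with 5 reads added or without translation, 0 within 1 kb, 9 with any term, 2 at 4-fold or with the interval and 0 at regions shared by both ESC tables. Those higher in SSC numbered 43 with any term, 10 at 4-fold, 4 with the interval and 35 at the shared regions, an alternative chosen after seeing the data.

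Reversed in ESC against SSC were EIF3J and MRPL47 without inputs (0.96 and 0.85) and with empty inputs at 3 counts (0.29 and 0.19), MRPL46 with them (-0.22), RPL5 at its region with the most reads (1.23), and, as the mean over a gene's regions, RPL5 (0.0503), RPL22L1 (-0.30) and RPS21 (-0.23). Reversed in PGC against SSC were EIF3F without inputs (0.13) and RPL31 as the mean (-0.18). Fewer or other regions enter the filtered and shared sets by construction; for the rest the cause was not tested.

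No paired analysis was possible because each group had 1 library and no replicate number, and no replicate could be left out. The planned promoter sequence features were not run. Depth limits the small classes: the mitochondrial regions had a median of 25 IP reads in ESC.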
